A study of Drosophila melanogaster with 6 samples.

Results

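The 47 odorant-binding protein (Obp) genes described here are those whose symbol on the array begins with Obp and a number and is the only symbol of its probe set. They were read by 50 of 18769 probe sets, with the brighter probe set taken for the 3 genes that had 2 (Obp19a, Obp19c and Obp59a), and they stand among 11982 genes so measured. A gene was taken as expressed in embryos where the mean of its log2 values on all 6 arrays was above 6, and 14 of the 47 genes met this. RefSeq lists 51 genes with such symbols. The other 4 are Obp83a, for which no probe set is named here, and Obp50b, Obp50c and Obp57d, whose probe sets carry several symbols and were not assigned to a gene.

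The study compared embryos of w1118, labelled wild type, with embryos of a clbn knock-out stock in Drosophila melanogaster. Clbn (Caliban) is the fly homologue of NEMF, a component of ribosome-associated quality control, and the series title concerns its part in the gut. Both groups carry w1118 as the labelled strain background, were kept at 25 °C and were collected as whole embryos over 0 to 24 h, so each sample mixes all embryonic stages. Each genotype has 3 arrays. The labels do not describe the knock-out allele, any backcross, or whether replicates are independent collections, and p-values therefore measure only the spread between these samples, which may be technical. For any gene other than clbn, loss of clbn and other differences between the stocks cannot be told apart.

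Array medians lay between 6.17 and 6.36, first quartiles between 4.28 and 4.36, and no detection calls were used, so a value near the first quartile cannot be told from background. The clbn probe set read 7.86 to 8.44 in w1118 and 5.14 to 5.42 in the knock-out, lower on every knock-out array. Across all probe sets, 668 of 18769 were called changed at an adjusted p below 0.05 (3.56%). Averaged over 3 control genes, 3′ control probe sets exceeded 5′ ones by 1.56 log2 on knock-out array 1 and by 0.93 to 1.04 on the other 5 arrays. Levels of different probe sets also depend on their probes, so the order of genes by level is a description of the array readings.

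Odorant-binding proteins are small, secreted proteins, held together by disulfide bonds between conserved cysteines, with a pocket that takes up hydrophobic molecules. In the adult antenna and taste organs, support cells secrete them into the fluid around sensory neurons, where some carry odorants or pheromones to receptors. Many members of the family are also made outside the sensory organs, among them several that are transferred in male seminal fluid and one, Obp44a, that is abundant in glia. Many of the genes lie in tandem clusters named after their cytological position, and others stand alone.

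A minority of the family had means above 6 over the 6 arrays, a level that lies below every array median. Several of these genes differed between the genotypes. In the knock-out 5 of the 47 genes were lower (Obp18a, Obp99b, Obp83ef, Obp56h and Obp83g, by 1.43-fold to 1.91-fold) and 1 was higher (Obp99c, by 1.62-fold). That is 12.8% of the family, against 4.51% of all genes. By direction, 2.63% of all genes were called lower and 1.88% higher. The count depended on single arrays and on weighting. It was 2 without w1118 array 1 or w1118 array 3, 3 without any 1 of the knock-out arrays, and 10 with array weights. With the replicate block 2 genes were higher in place of 1. The share of all probe sets called moved as well, from 3.56% to 1.01% without w1118 array 1 and 1.36% without w1118 array 3. It was 3.23%, 1.9% and 1.83% without knock-out arrays 1, 2 and 3, 8.2% with array weights and 5.21% with the block. None of the 6 differed by as much as 2-fold. For 16 of the 47 genes (34.0%) no knock-out array overlapped w1118, 12 lower and 4 higher in the knock-out, against 28.8% of all genes (13.1% lower), a share near this background for the total. The median log2 difference was 0.00 over the 47 genes and 0.02 over all genes. In whole embryos, fewer cells of a type and less RNA per cell cannot be told apart.

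**Figure D1:**
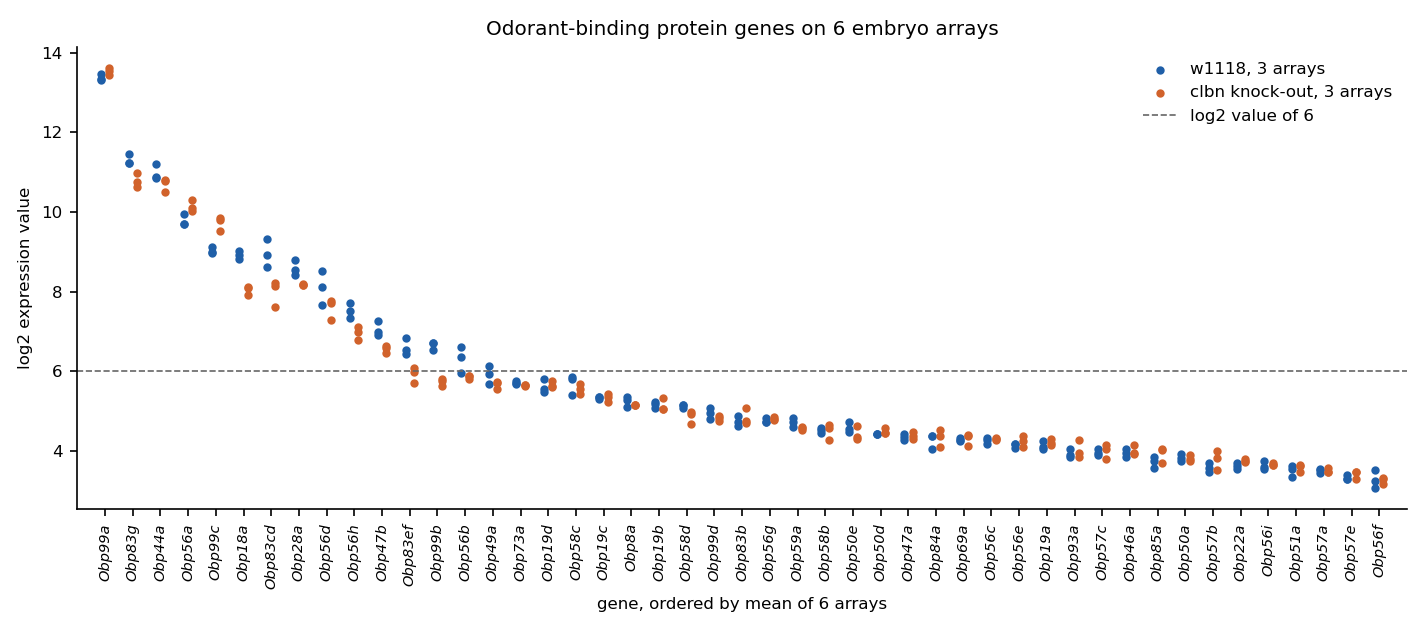
Log2 expression value (y axis) of each of the 47 Obp genes (x axis, ordered by the mean of 6 arrays) on the 3 w1118 arrays (blue) and the 3 clbn knock-out arrays (orange). The dashed line marks a value of 6, above which the means of 14 genes lie, from 6.07 for Obp56b to 13.46 for Obp99a, and the other 33 genes lie between 3.27 and 5.79.

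Of the 14 genes above 6, 3 had means above 10, 5 between 8 and 10, and 6 between 6 and 8. The 3 highest readings were those of Obp99a, Obp83g and Obp44a. By arm, 6 of the 14 are on 2R, 6 on 3R, 1 on 2L (Obp28a) and 1 on X (Obp18a). The family as a whole has 26 members on 2R, 11 on 3R, 6 on X, and 2 each on 2L and 3L. The share of the family above 6 was 29.8%, against 66.7% of all genes. In w1118 the means of the same 14 genes were above 6, and in the knock-out 11 were, since the means of Obp83ef (5.92), Obp99b (5.72) and Obp56b (5.85) fell short of it. These 3 passed the level of 6 through their w1118 values, so the counts within the 14 describe those genes and carry no weight as evidence. They were 6 called and 11 with a lower knock-out mean, where of all genes above 6, 5.64% were called and 41.1% had a lower knock-out mean. The genes just inside the level were Obp56b at 6.07 and Obp99b at 6.18, and those just outside were Obp49a at 5.79 and Obp73a at 5.68.

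The gene with the smallest p in the family was Obp99b (CG7592, arm 3R), also known as tsx, a gene first described for sex-dependent expression in adult head fat tissue. It read 6.71, 6.71 and 6.54 on the w1118 arrays and 5.79, 5.74 and 5.63 on the knock-out arrays. Every knock-out array lay below every w1118 array, and each genotype varied little. It fell 1.91-fold, from 6.65 ± 0.10 to 5.72 ± 0.08 (SD, n = 3 each, log2 −0.93, SE 0.08, limma adjusted p = 0.00125). The call held in all 12 alternative analyses, with adjusted p from 0.00017 to 0.0128.

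Obp18a (CG15883, on X), a singleton with no neighbouring family member, read 8.91, 8.82 and 9.02 in w1118 and 8.12, 7.91 and 8.08 in the knock-out. The 2 sets of arrays were well apart. It fell 1.84-fold, from 8.92 ± 0.10 to 8.04 ± 0.11 (SD, n = 3 each, log2 −0.88, SE 0.09, limma adjusted p = 0.00224). This call too held in all 12 alternatives (adjusted p 0.000335 to 0.0208). Among the 10 measured genes closest to it, 5 to either side, 1 was called, in the upward direction, and their differences ran from −0.41 to 0.42.

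Obp99c (CG7584, arm 3R) was the member that rose. It read 9.11, 8.99 and 8.96 in w1118 and 9.85, 9.52 and 9.79 in the knock-out, with every knock-out array above every w1118 array. The rise was 1.62-fold, from 9.02 ± 0.08 to 9.72 ± 0.17 (SD, n = 3 each, log2 0.70, SE 0.10, limma adjusted p = 0.0121). Removing w1118 array 1, w1118 array 3 or knock-out array 3 moved its limma adjusted p past the threshold, to 0.0514, 0.0576 and 0.0504, and over its alternatives the adjusted p ran from 0.00568 to 0.0576.

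Obp99c and Obp99b belong to the Obp99 cluster, together with Obp99a and Obp99d, of which 1 rose, 1 fell and the other 2 were not called. Obp99a (CG18111) read 13.33, 13.34 and 13.46 in w1118 and 13.45, 13.54 and 13.62 in the knock-out. Its genotypes overlapped, and the difference of 0.16 log2 was not called (SE 0.08, limma adjusted p = 0.34). Obp99d, whose mean of 4.87 lies near the first quartile, had a difference of −0.13 (limma adjusted p = 0.516). The 7 other measured genes that lie between Obp99a and Obp99b, among them the seminal fluid peptide gene Dup99B and the spindle checkpoint gene Bub3, were not called. None of the 10 nearest measured genes outside the cluster was called either, with differences from −0.11 to 0.25. The cluster is separated from clbn by 430 to 440 measured genes.

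The 3 adjacent genes Obp83cd, Obp83ef and Obp83g, on arm 3R with 2070 or more measured genes between them and clbn, had lower means in the knock-out, and 2 of the 3 were called. Obp83cd and Obp83ef encode proteins with paired odorant-binding domains, and Obp83g lies next to them with no other measured gene between. Obp83g (CG31558) read 11.23, 11.23 and 11.46 in w1118 and 10.64, 10.76 and 10.97 in the knock-out. It fell 1.43-fold, from 11.31 ± 0.13 to 10.79 ± 0.17 (SD, n = 3 each, log2 −0.52, SE 0.11, limma adjusted p = 0.0467). Obp83ef (CG31557) read 6.53, 6.43 and 6.82 in w1118 and 5.70, 6.09 and 5.99 in the knock-out. No arrays overlapped, and it fell 1.59-fold, from 6.59 ± 0.20 to 5.92 ± 0.21 (SD, n = 3 each, log2 −0.67, SE 0.13, limma adjusted p = 0.0404).

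Obp83cd (CG15582) had the largest difference of the family but also a wide spread. It read 8.92, 8.62 and 9.32 in w1118 and 7.60, 8.14 and 8.21 in the knock-out. All 3 knock-out arrays were below all 3 w1118 arrays, yet the difference of −0.97 log2 was just short of the threshold (SE 0.21, limma adjusted p = 0.052). Obp83cd was called in 5 of its 12 alternatives. These were median centring (limma adjusted p = 0.0235), the replicate number as a block (0.0303), array weights (0.0144), the intensity trend (0.0393) and the fit without w1118 array 2 (0.0462). Over all 12 the adjusted p ran from 0.0144 to 0.165. The call of Obp83ef was lost in each of the 6 analyses that left out 1 array (adjusted p 0.0532 to 0.134). The call of Obp83g was lost in 5 of these 6, all but the one without knock-out array 3, and also with quantile normalisation, with adjusted p from 0.0181 to 0.157 over its alternatives. Of the 10 measured genes nearest to this trio none was called, and their differences ran from −0.32 to 0.38. Obp83b, an antennal member near them on the arm, read 4.61 to 4.87 in w1118 and 4.69 to 5.07 in the knock-out, near the first quartile, and its mean was higher in the knock-out (4.74 to 4.84, log2 0.10, limma adjusted p = 0.711).

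**Figure D2:**
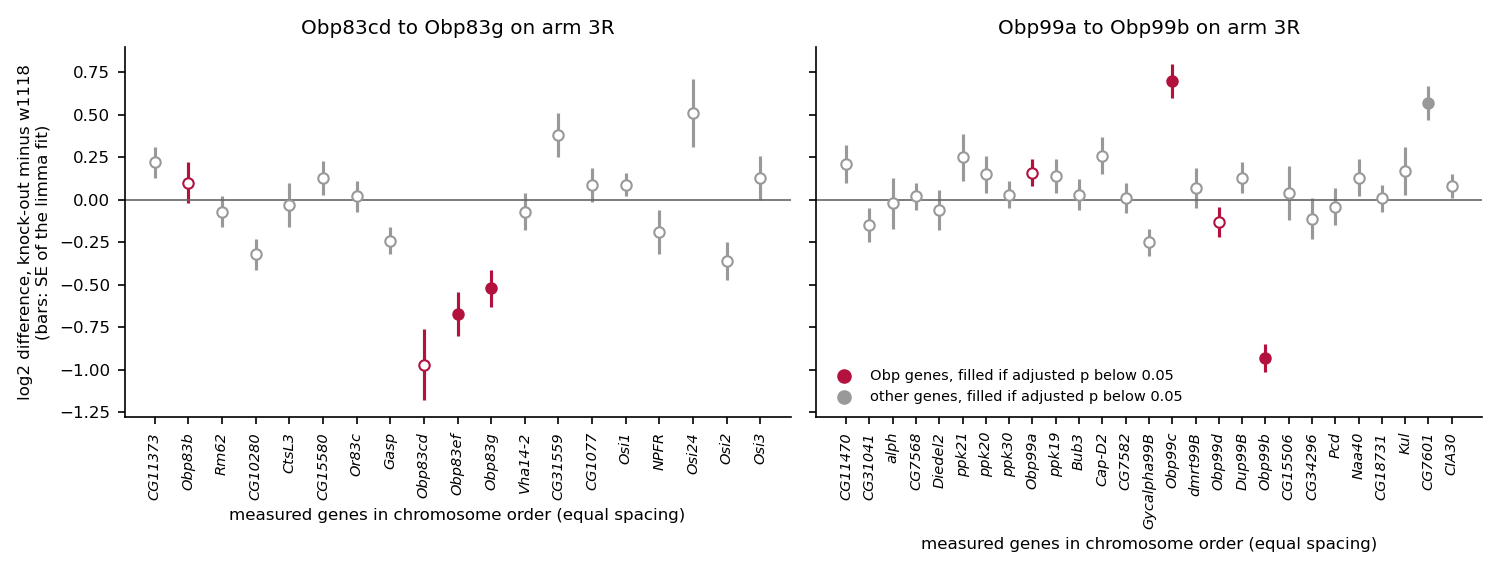
Log2 difference between knock-out and w1118 (y axis, bars show the SE of the limma fit) for measured genes in chromosome order (x axis, equal spacing) around the Obp83 trio (left) and the Obp99 cluster (right). Obp genes are red and other genes grey, and filled points have an adjusted p below 0.05. The Obp83 trio lies at −0.97, −0.67 and −0.52 among uncalled neighbours, and in the Obp99 cluster Obp99c at 0.70 and Obp99b at −0.93 lie on opposite sides of 0.

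The Obp56 genes form the largest cluster, on arm 2R, and 4 of its 9 members had means above 6. Obp56h (CG13874), whose knock-down in adult males is known to change cuticular hydrocarbons and mating, read 7.51, 7.34 and 7.70 in w1118 and 6.78, 7.10 and 6.98 in the knock-out. Its arrays did not overlap, and it fell 1.48-fold, from 7.52 ± 0.18 to 6.95 ± 0.16 (SD, n = 3 each, log2 −0.56, SE 0.12, limma adjusted p = 0.0467). The call was lost with the replicate number as a block (adjusted p = 0.0501) and in 5 of the 6 analyses that left out 1 array, all but the one without w1118 array 2 (range over its alternatives 0.0135 to 0.165).

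Obp56a (CG11797) read 9.96, 9.71 and 9.69 in w1118 and 10.29, 10.09 and 10.03 in the knock-out. Its knock-out arrays were all above its w1118 arrays, with a difference of 0.35 log2 that was not called (SE 0.11, limma adjusted p = 0.122) but was with the replicate block (0.0443). Obp56d (CG11218), a gene with high expression in adult taste and olfactory organs, read 8.11, 7.66 and 8.51 in w1118 and 7.28, 7.72 and 7.75 in the knock-out. Its genotypes overlapped (log2 −0.51, SE 0.22, limma adjusted p = 0.264), and it had the widest spread of the 14 genes, with an SD of 0.43 in w1118. Leaving out w1118 array 3 gave a difference of −0.30, and leaving out w1118 array 2 gave −0.72. Obp56b (CG30129) read 6.36, 5.94 and 6.60 in w1118 and 5.79, 5.87 and 5.88 in the knock-out, a difference of −0.45 that was not called (SE 0.15, limma adjusted p = 0.163, and −0.30 without w1118 array 3). The remaining members Obp56c, Obp56e, Obp56f, Obp56g and Obp56i had means of 3.27 to 4.78, and none was called. Of the 10 measured genes nearest to the stretch from Obp56a to Obp56d 1 was called, CG15128, which lies next to Obp56a and was lower (log2 −0.70, limma adjusted p = 0.0362). The same gene was the one called among the 10 nearest to Obp56h once other Obp genes were passed over.

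The other 3 genes above 6 were all lower in mean and uncalled. Obp28a (CG6641), an abundant protein of the adult antenna, read 8.55, 8.42 and 8.80 in w1118 and 8.17, 8.19 and 8.16 in the knock-out. The knock-out arrays were nearly identical and all lay below w1118 (log2 −0.42, SE 0.10, limma adjusted p = 0.0755). Obp47b (CG13208) read 6.91, 6.99 and 7.27 in w1118 and 6.57, 6.64 and 6.46 in the knock-out, again without overlap (log2 −0.50, SE 0.11, limma adjusted p = 0.0515). Among the 10 measured genes nearest to Obp28a 1 was called, the scavenger receptor gene santa-maria, which was higher (log2 0.72, limma adjusted p = 0.00292), and none was called near Obp47b or Obp44a.

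Obp44a (CG2297), the glial member, read 10.87, 10.86 and 11.20 in w1118 and 10.49, 10.78 and 10.80 in the knock-out. The arrays did not overlap, but the gap was small against the spread (log2 −0.29, SE 0.13, limma adjusted p = 0.277), and leaving out w1118 array 3 gave −0.17, or knock-out array 1, −0.18. Among 12 other genes listed for glia, none was called, 5 had values below 0 and 7 above, and their median difference was 0.03. The mean level of these 12 genes was 9.53 to 9.64 in w1118 and 9.42 to 9.63 in the knock-out. How specific they are to glia was not tested.

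**Figure D3:**
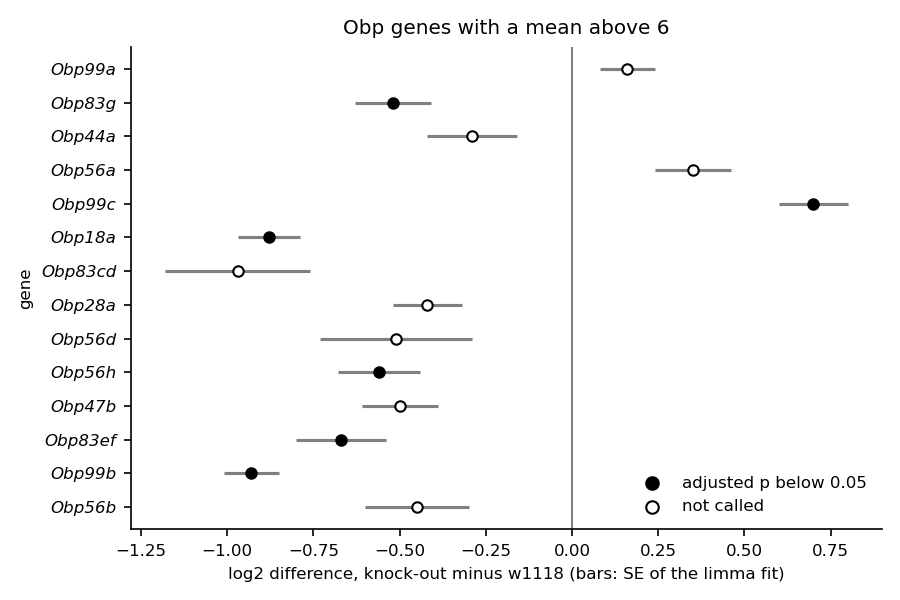
Log2 difference, knock-out minus w1118 (x axis, bars show the SE of the limma fit), for the 14 Obp genes with a mean above 6 (y axis, in order of mean level). Filled points have an adjusted p below 0.05. The 11 genes left of 0 run from −0.97 for Obp83cd to −0.29 for Obp44a, and the 3 right of 0 are Obp99a, Obp56a and Obp99c.

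The 33 genes at or below 6 gave no call, with log2 differences from −0.28 to 0.21, a median of 0.04 and 1 gene at an unadjusted p below 0.05. Among all genes at or below 6, 2.23% were called. That gene was Obp58d, at 5.14, 5.16 and 5.08 in w1118 and 4.68, 4.96 and 4.91 in the knock-out (log2 −0.28, SE 0.09, limma adjusted p = 0.156). Obp49a, which in adult taste organs takes part in the suppression of sweet taste by bitter compounds, read 5.93, 5.68 and 6.13 in w1118 and 5.69, 5.56 and 5.73 in the knock-out, with overlap (log2 −0.25, SE 0.12, limma adjusted p = 0.308, and −0.14 without w1118 array 3). Obp73a read 5.71, 5.75 and 5.68 in w1118 and 5.65, 5.63 and 5.66 in the knock-out, a difference of −0.07 (SE 0.07, limma adjusted p = 0.645).

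In all, 7 genes had means between 5 and 6. They were Obp49a, Obp73a, Obp19d (5.63), Obp58c (5.61), Obp19c (5.33), Obp8a (5.20) and Obp19b (5.15). The other 26 were below 5. Some with known roles in the adult antenna were among them. Examples are the pheromone-related Obp69a (4.28) and Obp83b (4.79), the coeloconic sensillum gene Obp84a (4.29) and Obp59a (4.64), which takes part in humidity sensing. By contrast, Obp28a (8.38) and Obp56d (7.84), also expressed in adult olfactory organs, were above 6. Obp57e, which with Obp57d is tied to taste responses to host-plant acids, lay at 3.37, and its relatives Obp57a, Obp57b and Obp57c between 3.49 and 3.97. Obp50a, Obp50d and Obp50e lay between 3.81 and 4.50, and Obp58b and Obp58d at 4.50 and 4.99. Obp19a (4.17), Obp46a (3.97), Obp47a (4.36), Obp56c (4.28), Obp85a (3.82), Obp93a (3.98) and Obp99d (4.87) were also below 5. With the genes of the next paragraph other than Obp8a, they complete the group.

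The members known as male seminal fluid proteins, Obp8a, Obp22a, Obp51a, Obp56e, Obp56f, Obp56g and Obp56i, had means from 3.27 to 5.20 and differences from −0.08 to 0.13. Of 22 other seminal fluid genes measured, 1 had a mean above 6, their median level was 3.62, and none was called. The second probe sets of Obp19a, Obp19c and Obp59a were also low, at 3.55, 3.78 and 3.21, and were not called.

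Most genes listed as odorant or gustatory receptors or as other secreted chemosensory proteins were low in these embryos. How specific the lists in this paragraph are to sensory organs was not tested. Of 19 other secreted chemosensory protein and membrane cofactor genes, 17 were at or below 6, including lush (3.72), the pheromone-binding family member with its own name, and Snmp1 (4.73), a membrane cofactor of adult pheromone sensing. Phk-3 (11.95) and Snmp2 (6.89) were above 6. In this list 1 gene fell and 0 rose, and the median difference was −0.02. The one that fell was Phk-3, a gene of the separate chemosensory protein family, from 12.19 to 11.71 (log2 −0.49, SE 0.10, limma adjusted p = 0.047). Of 56 odorant receptor genes 1 was above 6, with a median level of 3.99 for the list, and of 56 gustatory receptor genes none was, with a median of 3.95. None of either receptor list was called. Of 9 co-receptor and olfactory specification genes, ato (7.82), amos (6.73) and pdm3 (6.69) were above 6 while the co-receptor Orco was at 5.38, and none was called. Of 7 genes listed as odorant-degrading or support-cell genes 4 were above 6. They were the glutathione transferase gene GstD1 (11.41), nompA (7.57), which encodes a matrix protein of sensory organs, Cyp6a20 (6.90) and Sdr (6.74). Over the 7 genes the median level was 6.74, none was called, and the median difference was −0.04.

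**Figure D4:**
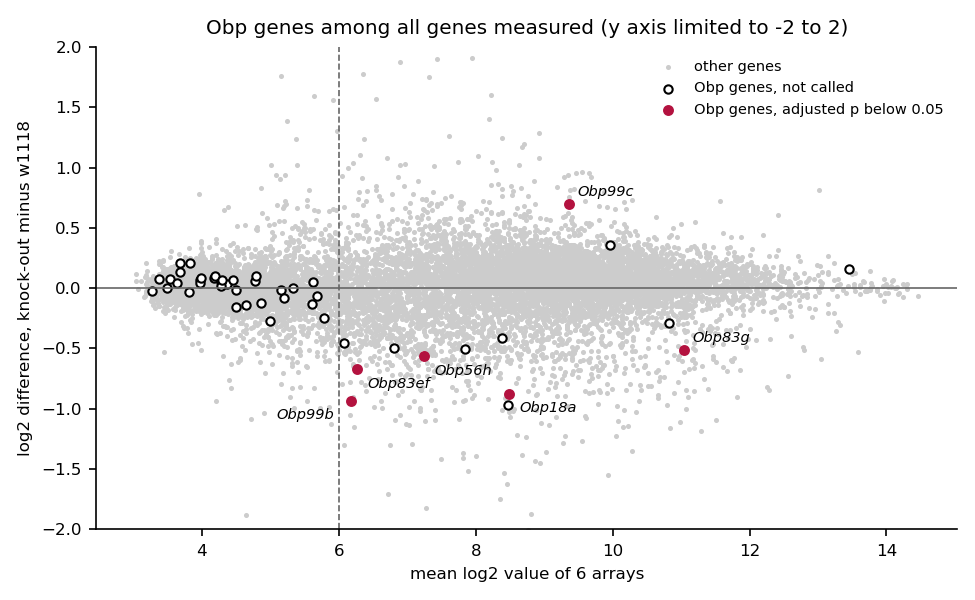
Log2 difference, knock-out minus w1118 (y axis), against the mean log2 value of 6 arrays (x axis) for all genes (grey) and the Obp genes (red where the adjusted p was below 0.05, open where not). The dashed line marks a mean of 6. The 6 called Obp genes lie to its right, 5 of them below 0 and Obp99c above; 21 genes lie outside the y axis limits of −2 and 2.

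By chromosome arm, of 11 family members on 3R 4 were called, where 6.59% of all genes on that arm were. Of the 26 on 2R 1 was called (Obp56h), against 2.80% of all genes on 2R, and of the 6 on X 1 was called (Obp18a), against 2.03% of all genes on X. No member on 2L or 3L was called, with 2 members on each, where 2.13% of all genes on 2L and 7.72% on 3L were.

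Among the 11 genes above 6 with a lower knock-out mean, w1118 array 3 was the highest w1118 array for 10, and w1118 array 2 the lowest for 8. Knock-out array 1 was the lowest knock-out array for 7 of the 11. The exceptions include the 2 genes with the steadiest calls. Obp99b was lowest on w1118 array 3 within w1118, and Obp18a was lowest on knock-out array 2 within the knock-out. The 11 genes were picked by level and direction. How often these arrays were highest or lowest over all genes was not counted, so the counts only describe these genes. Without knock-out array 1, which stood apart in the 3′ and 5′ control probe sets, the calls were those of Obp99c, Obp18a and Obp99b, and without w1118 array 1 or w1118 array 3 they were those of Obp18a and Obp99b. Without knock-out array 2 the calls were Obp99c, Obp18a and Obp99b, and without knock-out array 3 they were Obp83g, Obp18a and Obp99b. Without w1118 array 2, Obp83g and Obp83ef were lost (limma adjusted p = 0.0771 and 0.0532), and Obp83cd and Obp56b were gained (0.0462 and 0.0306).

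Several lists of tissue genes had their highest mean level on w1118 array 3 as well. The largest list was that of the late embryonic cuticle, picked by gene symbol alone. It held 90 genes for cuticle proteins of the Cpr and Tweedle families, 59 with means above 6 and 31 at or below it. Of the 90, 24 fell and 0 rose, where 2.63% of all genes were called lower and 1.88% higher. Values below 0 were found for 77, where 41.1% of all genes above 6 had a lower knock-out mean. The median log2 difference of the list was −0.35. Their mean level was 7.85, 7.73 and 8.01 on the w1118 arrays and 7.36, 7.55 and 7.50 on the knock-out arrays, so that w1118 array 3 was highest and knock-out array 1 lowest. The same 2 arrays were highest and lowest for glia (9.60, 9.53 and 9.64 in w1118, 9.42, 9.63 and 9.60 in the knock-out) and for sensory organs and neurons (6.64, 6.71 and 6.77, then 6.46, 6.56 and 6.65). Haemocyte genes read 7.60, 7.51 and 7.65, then 7.51, 7.56 and 7.52, and midgut genes 7.18, 6.81 and 7.33, then 6.58, 6.41 and 6.70, with knock-out array 2 lowest. Fat body genes and tracheal and salivary gland genes were highest on knock-out array 3, at 6.84 and 6.81. Of 10 early embryonic patterning genes none was called and all had values above 0, with a median of 0.17. Their mean level was 8.63, 8.85 and 8.41 in w1118 and 9.07, 9.04 and 8.50 in the knock-out. For these genes w1118 array 3 was lowest and knock-out array 1 highest, the reverse of the cuticle list. The part of embryo age or tissue content in the differences of the Obp genes was not tested.

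**Figure D5:**
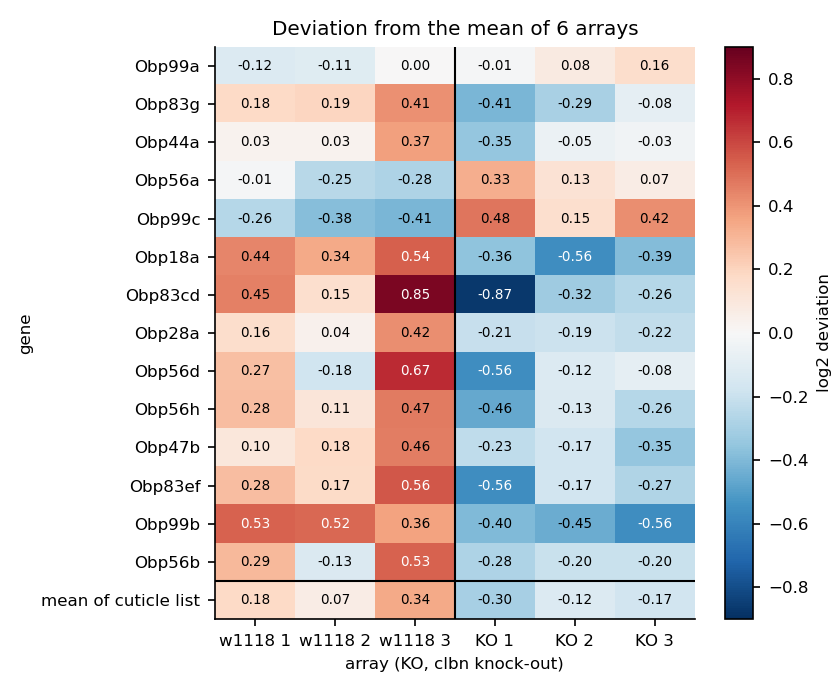
Deviation of each array (x axis) from the mean of 6 arrays, in log2 units (colour and printed value), for the 14 Obp genes with a mean above 6 and, in the last line, the mean of 90 cuticle genes. On w1118 array 3 the largest values are those of Obp83cd, Obp56d and Obp83ef, at 0.85, 0.67 and 0.56, and the cuticle genes are at 0.34. On knock-out array 1 the same genes are at −0.87, −0.56 and −0.56, and the cuticle genes at −0.30. Obp99c and Obp56a go the other way, at −0.41 and −0.28, then 0.48 and 0.33, and Obp99a is at 0.00, then −0.01. The deviations include the genotype difference, so a lower knock-out mean alone makes w1118 values positive on average.

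Other tissues gave few calls. None was called among 7 fat body genes (median difference −0.05, mean level 6.76 to 6.81 in w1118 and 6.72 to 6.84 in the knock-out), 9 genes of sensory organs and neurons (−0.08), 7 tracheal and salivary gland genes (0.09) or 8 haemocyte genes (−0.08). Of the 7 fat body genes 5 were at or below 6, with apolpp (13.32) and Apoltp (10.40) above it. Lsp1alpha, Lsp1beta and Lsp1gamma were not measured, so this list says little about fat body content. Of 6 midgut genes 1 fell, the lysozyme gene LysX, from 7.80 to 5.39, and the median was −0.21. Most of the measured markers of adult tissue that could be carried over were low. Of 6 adult antenna and eye genes 1 was above 6, as was 1 of 12 ovarian follicle genes, and none of either list was called. The eye genes ninaE, Rh3, Rh4, Rh5, Rh6 and ninaC were not measured, and lush and Orco also stand in lists given above.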

How the data were processed

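Total RNA of 6 embryo samples was hybridised as biotinylated cRNA to Affymetrix arrays, 1 sample on each, per the labels' protocols. The deposited values are log2 expression values per probe set, as read from their range, 2.84 to 14.52. The submitters' processing notes name affy, with no version or role, and no source used here states how the authors corrected, summarised and normalised the arrays. The values were not normalised again.

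Probe sets were named from the platform annotation, which can be old, and 402 with several symbols and 4720 not listed were left out of the gene counts. All 47 Obp genes matched RefSeq (Release 6 plus ISO1 MT) by gene identifier and 0 symbols changed. That table served for names, arms and gene order alone, since the array's build is not stated.

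The fit was made on all 18769 probe sets other than 183 controls (limma 3.58.1, R 4.3.3, functions lmFit and eBayes, genotype as the only term), with Benjamini-Hochberg adjustment over all of them and a call at 0.05. Folds are 2 raised to the size of the log2 difference. With 3 arrays a group, an exact permutation test cannot go below p = 0.1, so none was used. Tables and plots were made with Python 3.11.15, pandas 2.3.3 and matplotlib 3.10.9. On data simulated for the knock-out against w1118 comparison (200 of 18769 probe sets changed, 5 runs) the fit recovered 47.8% of changes of 0.5 log2, 87.8% of 1 and 98.5% of 2, and 5.00% of calls were false. The simulated noise was normal and independent between arrays, with the spread of each probe set. These rates therefore do not cover arrays that deviate together or differ in quality.

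Same-numbered samples deviated together from their group means (correlations 0.25, 0.23 and 0.39 for numbers 1 to 3). The labels state no pairing, so the main fit and its p-values leave the numbers out. A fit with the replicate number as a block was kept as an alternative. The blocked value stands beside each result whose call it changes. Other alternatives were quantile normalisation, median centring, a filter on dim probe sets, array weights, an intensity trend, leaving out each array, other levels in place of 6, and all probe sets of a gene. Genes given on every array are those above 6, those called, the 4 uncalled of smallest p and the 2 on each side of 6. Obp58d, given on every array too, and the list genes given with values were picked once their values were known. The members and lists were chosen with earlier results of these data known.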

Additional observations from a re-analysis of the deposited data

How the results depend on the processing

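The number of Obp genes with a mean above 6, 14, lay between 10 and 21 over its 7 alternatives, with 21 for a level of 5 and 10 for a level of 7. The number called, 6 (5 lower and 1 higher), was 10 with array weights, 9 of them lower, and Obp83cd, Obp28a, Obp47b and Obp56b were gained. When 1 array was left out it ranged from 2 to 6, with 2 to 5 lower and 0 to 1 higher. With the replicate number as a block 7 were called, 5 lower and 2 higher, where Obp56h was lost and Obp83cd and Obp56a were gained, and the block changed no other call. Quantile normalisation gave 5, and median centring gave 7, where Obp83cd was gained. The filter on dim probe sets, the intensity trend and the use of all probe sets of each gene gave 6 each. Obp18a and Obp99b were called in all 12 alternative fits. The intensity trend lost Obp56h (adjusted p = 0.0539) and gained Obp83cd (0.0393). The value of Obp73a turned from −0.07 to 0.00 with median centring, and each other gene named with its arrays kept its direction in every alternative that could be fitted. The causes of these changes were not tested. Over all probe sets, array weights gave 1539 calls in place of 668, and the replicate block gave 978. Leaving out w1118 array 1, 2 or 3 gave 190, 506 and 256, and leaving out knock-out array 1, 2 or 3 gave 607, 357 and 344. Values near the first quartile have no sure size of difference. The filter on dim probe sets left out Obp49a, Obp73a and Obp58d.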

Other observations

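A probe set listed for both Obp57d and the cuticle protein gene Cpr57A read 7.75, 7.63 and 8.10 in w1118 and 7.27, 7.55 and 7.48 in the knock-out, and it cannot be assigned to either gene (log2 −0.39, limma adjusted p = 0.168). The other probe set with the same pair of symbols read 4.83 to 5.15. Both probe sets listed for Obp50b and Obp50c together were below 6 on every array, with means of 5.46 and 5.32.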
